A study of Mus musculus with 304 samples.

Results

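The genes described are the cadherins and protocadherins of mouse dentate granule cells: all rows of the count table whose symbol is Cdh followed by a digit or begins with Pcdh. These were 59 of 22800 genes, comprising 23 cadherins, 12 protocadherins outside the gene clusters, 22 beta protocadherins, and 1 row each for the alpha cluster (Pcdha) and the gamma cluster (Pcdhg). The members were chosen by symbol and not by any measured value. Each library holds the cytosol of 1 granule cell drawn into a patch pipette (Patch-seq) and sequenced. Control cells (31) came from mice without an injection, labelled DG. Day 1 cells (58, KA1_DG_ipsi) came from the injected side 1 day after kainic acid, an agonist of kainate-type glutamate receptors that provokes seizures, was injected into the hippocampus (70 nl, 5 mM). Day 14 cells (29, Kainate_DG) were taken 14 days after kainic acid, with the side not given in their group label. GFP cells (59, GFP_Control) and Id2 cells (71, Id2_OE) were sampled 1 month after delivery of GFP or Id2 by adeno-associated virus (AAV). Id2 is an inhibitor of basic helix-loop-helix transcription factors. For the mice, no strain, sex or age is given in the labels used here, nor is the promoter of the virus.

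Cadherins are single-pass membrane proteins whose extracellular repeats bind calcium and hold neighbouring cells together, mostly by binding the same cadherin on the other cell. Classical cadherins of types I and II bind catenins, which connect them to actin. In the hippocampus N-cadherin (Cdh2) sits at excitatory synapses, and Cdh8, Cdh9 and Cdh10 are known from the mossy fibre synapse between granule cells and CA3 neurons. Protocadherins lack the catenin-binding tail. Those outside the clusters include Pcdh8, which is induced by neuronal activity and takes part in removing N-cadherin from synapses. The clustered alpha, beta and gamma genes are switched on in different combinations from cell to cell and give neurons a surface identity.

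No label names an animal, so a group stands for 1 sample, and differences between groups carry no test. A level is given in CPM, the reads of a gene scaled by all reads counted in genes, after summing both over the cells of a group. Its exact Poisson interval at 95% covers the counting error of reads only. A share of cells carries an exact Clopper-Pearson interval at 95%, which treats cells as independent draws. Ratios between groups are log2 ratios of CPM after adding 1 CPM, and "2-fold higher" or "2-fold lower" means a log2 ratio past 1 in size. Genes count as measured between a pair of groups if one of them reached 5 CPM and one had a read in 20% or more of its cells. Median reads per cell were lowest in controls, at 1738610, and highest on day 14, at 7615492. For some genes, shares of cells with a read are therefore also given after each cell was thinned to 100000 reads. That step left out 2 control cells.

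Granule cell identity and foreign RNA were checked with marker lists. Of 15 granule cell markers, 14 or 15 reached 5 CPM in every group. The granule cell transcription factor Prox1 stood between 217 and 296 CPM, but other granule cell genes were less steady. Calb1 stood at 1248.6 CPM in controls, 411.3 on day 1, 701.7 on day 14, 1117.4 in GFP cells and 1112.1 in Id2 cells. Its reads were in 96.8% of control cells and 56.9% of day 1 cells. C1ql2 stood at 482.3, 176.1, 112.7, 856.9 and 366.3 CPM in the same order. Dsp went the other way after kainate, from 0.372 CPM in controls to 1.73 on day 1 and 5.09 on day 14. All 15 summed to 4152 CPM in controls, 2118 on day 1, 1969 on day 14, 4356 in GFP cells and 3143 in Id2 cells. Summed markers of microglia (14 genes) stood at 3596 CPM in controls, 753 on day 1, 6469 on day 14, 163 in GFP cells and 592 in Id2 cells, and P2ry12 had no read on day 1. Cells with at least 1000 CPM of these markers, called microglia-rich below, numbered 17, 7, 20, 2 and 11 in the same order, so that leaving them out removes most of the day 14 cells and most of the controls. Summed markers of astrocytes ranged from 159 to 426 CPM over the 5 groups, of oligodendrocytes from 129 to 334, of interneurons from 757 to 1354, of CA pyramidal cells from 225 to 477 and of endothelial and mural cells from 1.59 to 46.8. Gjb6 of astrocytes was at 0 in all 3 groups without virus, and Cldn5 of endothelium in the same groups. The virally delivered gene Id2 stood at 37369 CPM in Id2 cells (lowest cell 1446) and 93.2 in GFP cells (highest cell 575), and at 127.9 in controls, 1247 on day 1 and 422 on day 14. Sample titles of 22 control cells begin with J and those of the other 9 do not, while all kainate cells have K titles, so any batch behind these letters and the group cannot be told apart.

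The sequences before the starts of 4 members are printed because these genes carry the main results. Cdh22 and Pcdh10 were 2-fold higher in sum on both days after kainate (for Pcdh10 on day 14, with most reads in 1 cell), and Pcdh8 and Cdh9 were the highest members per kilobase of exon. They are from RefSeq (GRCm38.p6), written 5′ to 3′ on the gene's strand, and cover up to 250 bases before the RefSeq start. Bases inside the GENCODE vM21 gene model were left out. Capitals mark CANNTG, the E-box bound by basic helix-loop-helix factors, whose partner Id2 was overexpressed in the viral set. The Cdh22 stretch lies at chr2:165234854-165234987 (minus strand), Pcdh10 at chr3:45378148-45378397 (plus), Pcdh8 at chr14:79771313-79771562 (minus) and Cdh9 at chr15:16728665-16728755 (plus).
Cdh22: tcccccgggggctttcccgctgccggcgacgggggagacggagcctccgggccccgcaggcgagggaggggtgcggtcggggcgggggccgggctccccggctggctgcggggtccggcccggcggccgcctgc
Pcdh10: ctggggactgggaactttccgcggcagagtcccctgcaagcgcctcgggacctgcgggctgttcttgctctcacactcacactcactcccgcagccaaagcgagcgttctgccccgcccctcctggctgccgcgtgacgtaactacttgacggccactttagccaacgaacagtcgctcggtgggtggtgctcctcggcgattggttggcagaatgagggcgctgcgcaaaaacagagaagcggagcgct
Pcdh8: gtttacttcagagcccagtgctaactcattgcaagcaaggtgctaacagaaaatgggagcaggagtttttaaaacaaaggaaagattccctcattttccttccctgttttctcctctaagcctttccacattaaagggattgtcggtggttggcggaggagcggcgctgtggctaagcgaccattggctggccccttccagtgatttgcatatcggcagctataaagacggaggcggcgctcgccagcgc
Cdh9: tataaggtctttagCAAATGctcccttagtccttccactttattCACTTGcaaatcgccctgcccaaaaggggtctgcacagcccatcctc
The Cdh9 stretch holds 2 E-boxes, and the other 3 stretches hold none. The Cdh22 stretch is the richest of the 4 in G and C, at 85.1%, against 63.2% for Pcdh10, 51.2% for Pcdh8 and 48.4% for Cdh9. RefSeq promoters were given for 22 members. Over their full 250 bases, counting both strands, 12 of the 22 held CANNTG, against 66.2% of 32851 promoters. None of the 22 held TGACGTCA, the site of CREB family factors, or TGACTCA, the site of AP-1, which 1.55% and 4.46% of promoters held. Neither of these contains CANNTG, and the absence of a match says only that these letters are not in the window.

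Of the 59 members, 38 had at least 1 read in controls, 53 on day 1, 45 on day 14, 56 in GFP cells and 53 in Id2 cells. Members at 5 CPM or more numbered 21, 30, 32, 24 and 25. The summed level of all members was 4391 CPM in controls, 3658 on day 1, 3476 on day 14, 3558 in GFP cells and 2624 in Id2 cells. Per cell, the sum had a median of 3268 CPM in controls (lowest 758, highest 9510), 3001 on day 1 (505 to 9220), 3138 on day 14 (1261 to 8976), 3020 in GFP cells (372 to 7162) and 2396 in Id2 cells (0.788 to 10942). These ranges overlapped almost entirely. A thinned cell held reads of a median of 8 members in controls, 9 on day 1, 11 on day 14, 7 in GFP cells and 6 in Id2 cells. Over all genes that median was 3604 in controls, 4296 on day 1, 3911 on day 14, 3138 in GFP cells and 2719 in Id2 cells.

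**Figure D1:**
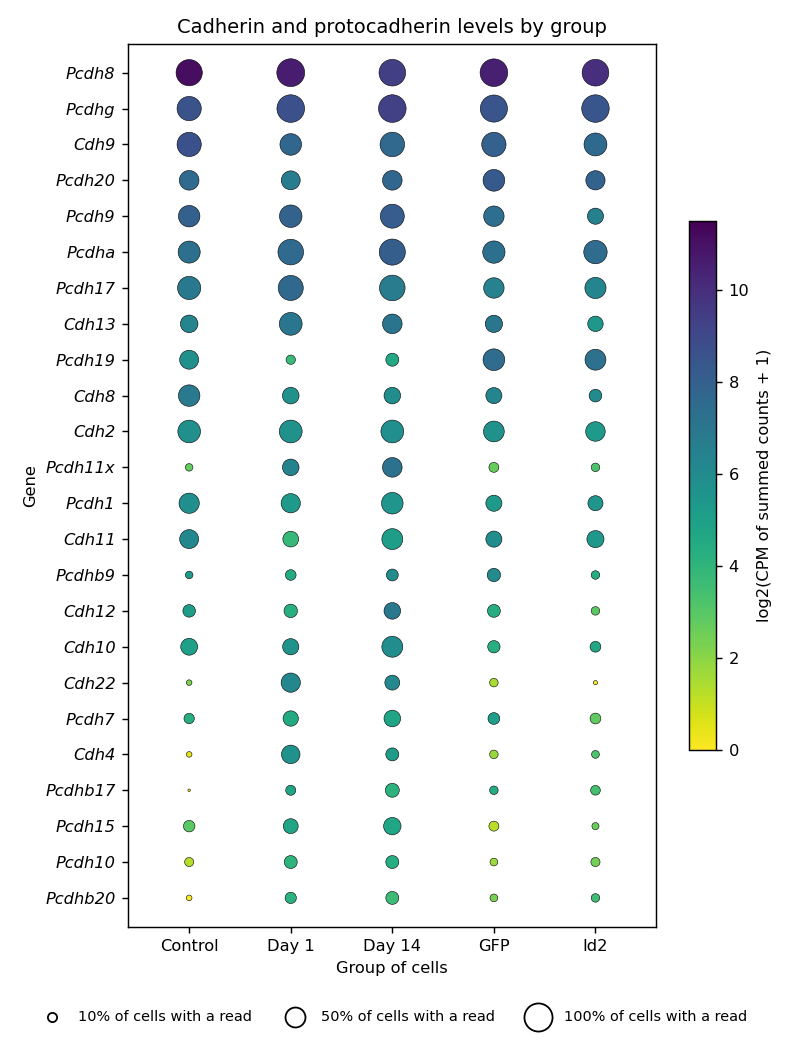
Level and detection of the 24 members measured in at least 1 comparison, one gene per row and one group of cells per column. Colour gives log2(CPM of summed counts + 1) and the area of a circle the percentage of cells with a read; Pcdh8 is darkest in every column, and Cdh4, Cdh22 and Pcdh11x are pale in the control, GFP and Id2 columns and darker in both kainate columns.

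Pcdh8 (GRCm38, chromosome 14, 79766775 to 79771312, minus strand), the activity-induced protocadherin, was the highest member in all 5 groups, also per kilobase of exon. It stood at 2246 CPM in controls (2234 to 2257), 1517 on day 1 (1514 to 1521), 659 on day 14 (655.5 to 661.7), 1433 in GFP cells (1428 to 1438) and 979 in Id2 cells (975 to 983). Single control cells ran from 0 through a median of 1158 to 6447 CPM, day 1 cells from 0 through 1131 to 6508, and day 14 cells from 0 through 587 to 2792. In GFP cells the median cell stood at 1348 CPM (0 to 3360) and in Id2 cells at 741 (0 to 4109). The median control cell and the median day 1 cell were thus close, while the median day 14 cell was lower, and the ranges of all groups overlapped from 0 upwards. Its reads were in 87.1% of control cells (70.2% to 96.4%), 98.3% of cells on day 1 (90.8% to 99.96%) and 89.7% on day 14 (72.6% to 97.8%). The lower level on day 14 was therefore a lower amount in cells that mostly had reads. The log2 ratio to control was -0.57 on day 1 and -1.77 on day 14, and it was -1.80 on day 14 without microglia-rich cells. A sum over cells alone cannot tell fewer cells with a transcript from less transcript per cell, which is why shares and medians stand beside it.

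Cdh9 (chromosome 15, 16728756 to 16857094, plus strand), a type II cadherin of the mossy fibre synapse, was next per kilobase in every group. Its level was 396 CPM in controls (391 to 400.5), 215 on day 1 (214 to 217), 203 on day 14 (201 to 205), 251 in GFP cells (249 to 253) and 195 in Id2 cells (193 to 196). The median cell stood at 246, 23.2, 106.3, 136 and 46.8 CPM in the same order, with a lowest cell at 0 in each group and a highest between 1260 and 2065. Both kainate groups were thus below control in the sum and in the median cell, with log2 ratios of -0.88 and -0.96. On day 1, 48.04% of the Cdh9 reads came from 1 cell, and without it the day 1 level was 117.8 CPM. From summed counts neither ratio passed 2-fold with all cells. By the mean over cells and on thinned cells the day 1 ratio did (-1.36 and -1.46), and the day 14 ratio did not (-0.64 and -0.78). Without the day 1 cell with most Cdh9 reads the summed day 1 ratio was -1.74. Without the leading day 14 cell the summed day 14 ratio was -1.37. Those 2 values are the lowest of the alternatives run, and the highest were near 0, at -0.22 on day 1 and -0.21 on day 14.

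Among the other mossy fibre and synaptic cadherins, Cdh2 was the steadiest in the kainate series. Cdh2, N-cadherin, stood at 53.4 CPM in controls, 51.4 on day 1, 54.7 on day 14, 52.4 in GFP cells and 38.4 in Id2 cells. Its median cell was at 9.56, 8.10, 12.3, 0.253 and 0 CPM, with highest cells between 310 and 655. Reads of Cdh2 were found in 64.5% of control cells, 65.5% of day 1 cells and 65.5% of day 14 cells, and in 54.2% of GFP cells and 47.9% of Id2 cells. Without microglia-rich cells its day 14 log2 ratio was -1.38, against 0.04 with all cells, and such cells were left out of both groups there.

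Cdh8, another type II cadherin, stood at 112.2 CPM in controls (109.6 to 114.7), 51.6 on day 1 (50.96 to 52.3), 56.5 on day 14 (55.6 to 57.4), 76.4 in GFP cells (75.3 to 77.6) and 60.3 in Id2 cells (59.4 to 61.3). The median control cell was at 51.1 CPM and the median cell of each other group at 0, with highest cells from 752 to 1081. Reads of Cdh8 were found in 58.1% of control cells (39.1% to 75.45%) and 34.5% of the cells of either kainate group (22.5% to 48.1% on day 1, 17.9% to 54.3% on day 14). Cdh8 was thus lower in both, past 2-fold on day 1 (log2 ratio -1.10) and just short of it on day 14 (-0.98), and the intervals of the shares overlapped. Either side of 2-fold hung on 1 cell. Without the control cell with most Cdh8 reads the day 1 ratio was -0.74, and without the day 14 cell that held 48.5% of the reads there the day 14 ratio was -1.87. Cdh10, which pairs with Cdh9 in the type II family, stood at 31.5 CPM in controls, 48.9 on day 1, 57.5 on day 14, 18.1 in GFP cells and 25.2 in Id2 cells. Its median cell was at 0 in every group except day 14, at 0.147, and its highest cells ran from 228 in GFP cells to 1035 in Id2 cells. Thinned reads of Cdh10 were found in 34.5%, 22.4%, 41.4%, 13.6% and 11.3% of cells, so the sum and the share did not order control and day 1 the same way. Its log2 ratios to control were 0.62 and 0.85, and 1.17 and 1.40 without the control cell with most Cdh10 reads.

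The comparison of day 1 with control cells asks how granule cells differed soon after kainate. Cdh4 and Cdh22, both classical cadherins, and the protocadherins Pcdh10, Pcdh11x and Pcdh15 were 2-fold higher on day 1. Cdh11, Cdh8 and Pcdh19 were 2-fold lower. Of 21 measured members, 5 were thus higher, against a background of 23.2% of 9079 measured genes, and 3 were lower, against 15.2%. All 5 higher members passed the filter through day 1 alone, which fixes their direction. Of the 3 lower members, Pcdh19 passed the filter through control cells alone, so its direction is no result either. Of the 13 members that passed it in both groups 0 were 2-fold higher and 2 lower. Over all 6581 genes that passed it in both groups, 14.5% were higher and 14.4% lower. The median log2 ratio was 0.14 over the measured members and 0.17 over all measured genes. The counts stood near the background.

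The day 14 comparison uses the same 31 control cells, so the 2 comparisons with control are not independent. The same 5 genes were 2-fold higher on day 14, with Cdh12, Pcdhb17 and Pcdhb20 in addition, and Pcdh8 and Pcdh19 were lower. Of 23 measured members 8 were higher, against 23.8% of 9469 genes, and 2 lower, against 15.8%. All 8 higher members passed the filter through day 14 alone, and of the 14 that passed it in both groups 0 were 2-fold higher and 2 lower. Over all 6646 genes that passed it in both groups, 13% were higher and 15.9% lower. The median log2 ratio of the measured members was 0.74, against 0.14 over all measured genes.

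**Figure D2:**
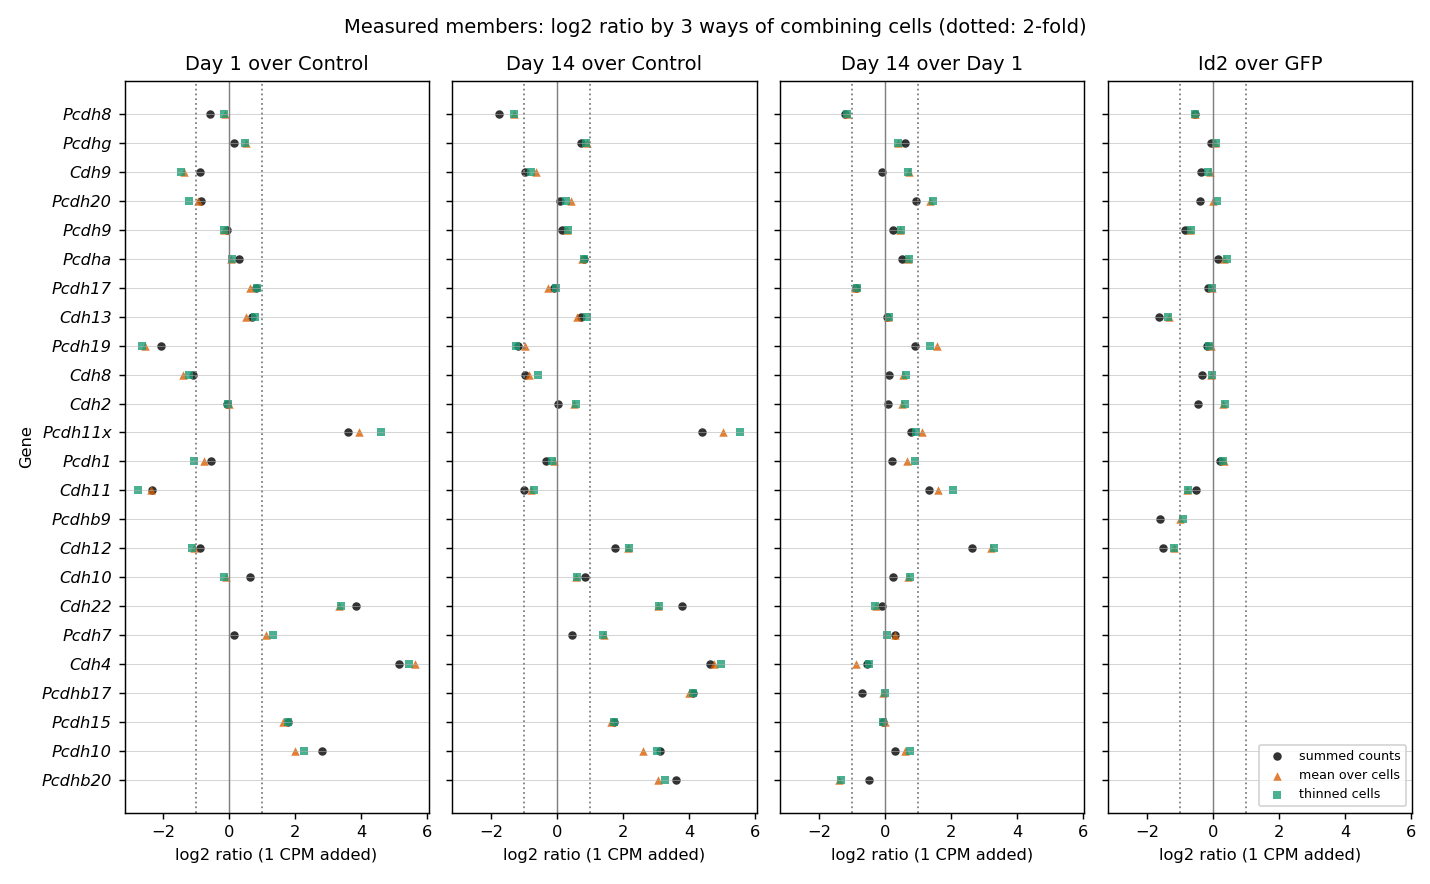
Log2 ratio of each measured member (rows) in the 4 comparisons (panels), after adding 1 CPM, from summed counts (circles), the mean over cells (triangles) and thinned cells (squares). Dotted lines mark 2-fold; Cdh4, Cdh22 and Pcdh11x lie to the right of them by all 3 ways at both times after kainate, and Cdh13 lies to the left by all 3 in Id2 cells.

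Cdh4 (R-cadherin, a type I classical cadherin, chromosome 2, 179442431 to 179899373, plus strand) gave the largest ratio to control of the measured members from summed counts with 1 CPM added, on both days. On day 14 Pcdh11x stood above it by the mean over cells (log2 ratio 5.03, against 4.75 for Cdh4) and on thinned cells (5.52 against 4.97). It stood at 0.476 CPM in controls (0.326 to 0.6725), 51.5 on day 1 (50.9 to 52.2), 35.1 on day 14 (34.4 to 35.8), 2.41 in GFP cells (2.21 to 2.62) and 8.33 in Id2 cells (7.98 to 8.68). Among control cells, 1 of 31 held all 32 reads, at 9.62 CPM. Reads were found in 43.1% of day 1 cells (30.2% to 56.8%), with a highest cell at 633 CPM. On day 14 they were found in 20.7% of cells (7.99% to 39.7%), with a highest at 457, against 3.23% of control cells (0.0816% to 16.7%). These shares are at unequal depth, with a median of 6834545.5 reads per cell on day 1 and 1738610 in controls. Several day 1 cells with a read held less than 1 CPM of Cdh4, down to 0.0361. The median cell was at 0 in every group, and the groups overlapped at 0. In GFP cells 99.3% of the Cdh4 reads lay in 1 cell, and in Id2 cells 96.9%. The log2 ratios to control were 5.15 on day 1 and 4.61 on day 14, and 5.45 and 4.97 on thinned cells. Without microglia-rich cells they were 5.85 and 5.93, and against GFP cells in place of control cells 3.95 and 3.41.

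Cdh22 (a type II cadherin, chromosome 2, 165111507 to 165234853, minus strand) was also highest on day 1 and day 14. It stood at 4.004 CPM in controls (3.54 to 4.51), 71.2 on day 1 (70.4 to 71.9), 66.996 on day 14 (66.005 to 67.999), 1.83 in GFP cells (1.66 to 2.02) and 0.00376 in Id2 cells, where 1 read was counted. All control reads lay in 1 cell at 204 CPM, whereas on day 1 27 of 58 cells (46.6%, 33.3% to 60.1%) and on day 14 8 of 29 (27.6%, 12.7% to 47.2%) had a read. The highest cell was at 593 CPM on day 1 and 951 on day 14, where 52.6% of the reads came from 1 cell. The log2 ratios were 3.85 and 3.76 (2.76 on day 14 without that cell), or 6.21 and 6.17 without microglia-rich cells. Thinned reads were found in 37.9% of day 1 cells, 24.1% of day 14 cells, 3.45% of control cells, 3.39% of GFP cells and 0% of Id2 cells (0 of 71 cells).

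Pcdh11x (an X-linked protocadherin, chromosome X, 120290259 to 120910619, plus strand) had its highest level on day 14. It stood at 5.88 CPM in controls (5.31 to 6.49), 81.4 on day 1 (80.6 to 82.2), 141 on day 14 (140 to 143), 5.34 in GFP cells (5.04 to 5.65) and 8.64 in Id2 cells (8.29 to 8.9996). Reads were found in 2 of 31 control cells (6.45%, 0.791% to 21.4%), in 20 of 58 on day 1 (34.5%, 22.5% to 48.1%) and in 14 of 29 on day 14 (48.3%, 29.4% to 67.5%). The highest cell was at 114.2 CPM among control cells, 864 on day 1 and 1380 on day 14. The highest day 14 cell held 18.2% of the reads there, so the level was spread over several cells. The log2 ratios were 3.58 and 4.37, 2.60 and 2.50 without microglia-rich cells, and 3.70 and 4.49 against GFP cells.

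Pcdh10, a protocadherin that takes part in removing excitatory synapses, stood at 1.41 CPM in controls, 15.8 on day 1, 19.8 on day 14, 2.33 in GFP cells and 4.51 in Id2 cells. Of its day 14 reads 83.97% came from 1 cell at 581 CPM, without which the day 14 log2 ratio was 0.82, and without microglia-rich cells its day 14 log2 ratio turned from 3.10 to -2.13. On day 1 its log2 ratio was 2.80, and 1.68 without microglia-rich cells, with reads in 12 of 58 cells. Pcdh15, known from the tip links of hair cells, stood at 6.77 CPM in controls, 25.8 on day 1, 24.5 on day 14, 1.37 in GFP cells and 5.20 in Id2 cells. Its log2 ratios were 1.79 and 1.71, and on day 14 0.32 without microglia-rich cells and 0.97 without the day 14 cell with most Pcdh15 reads. Reads of Pcdh15 were found in 16.1%, 27.6%, 37.9%, 11.9% and 5.63% of cells. Both genes were thus sparse in every group.

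At least 10 reads of any of these 5 genes were found in 6 of 31 control cells (19.4%, 7.45% to 37.5%), in 41 of 58 on day 1 (70.7%, 57.3% to 81.9%) and in 22 of 29 on day 14 (75.9%, 56.5% to 89.7%). In the viral set the same held for 12 of 59 cells that received GFP (20.3%, 10.98% to 32.8%) and for 10 of 71 that received Id2 (14.1%, 6.97% to 24.4%). On thinned cells, with at least 1 read, the shares were 20.7%, 68.97%, 72.4%, 22.03% and 15.5%. At least 2 of the 5 genes were found in 22 day 1 cells and 9 day 14 cells, against 2 control cells, and the most in 1 cell was 4. The 5 genes were picked for being higher in these kainate cells than in these controls, so the shares of the 3 groups describe that choice and support nothing. The shares in GFP and Id2 cells are given as a description.

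**Figure D3:**
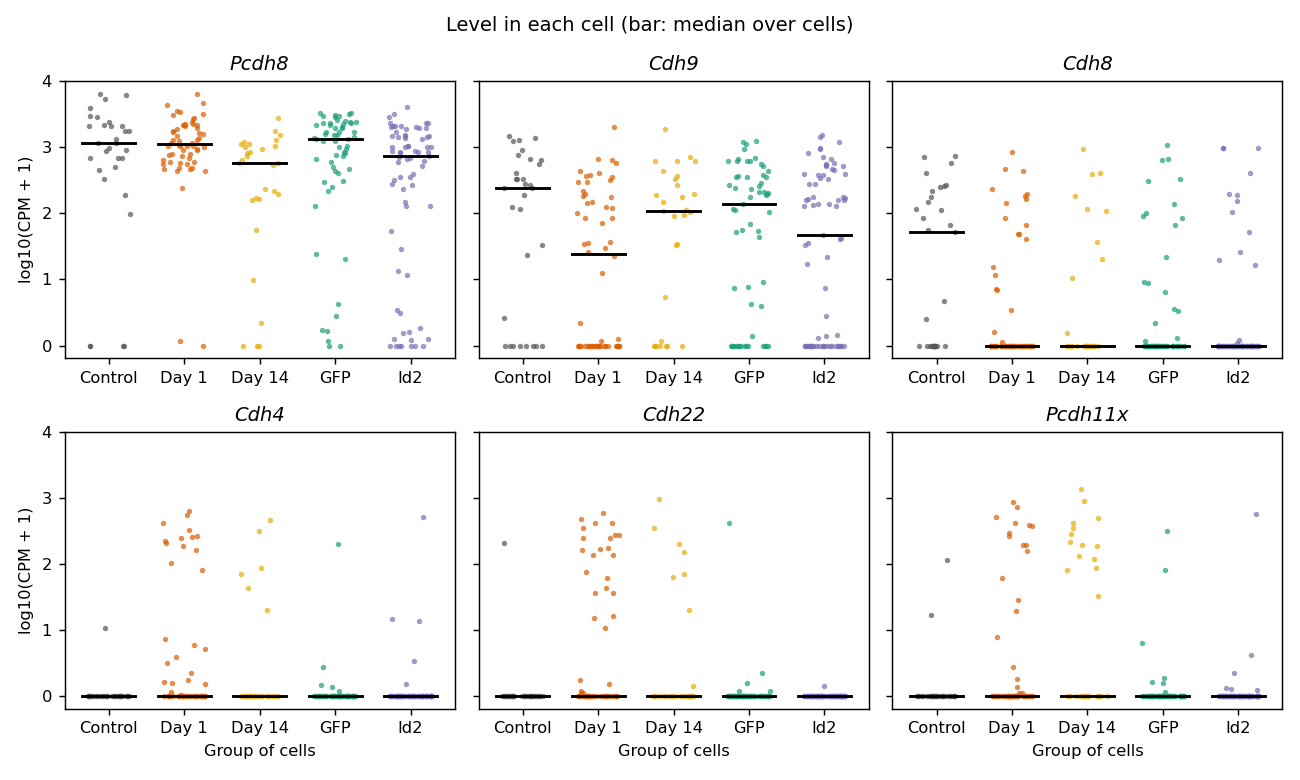
Level of 6 members in each cell, as log10(CPM + 1), with 1 point per cell, points spread sideways for visibility, and a bar at the median over the cells of a group. Pcdh8 and Cdh9 are found in most cells of every group, while Cdh4, Cdh22 and Pcdh11x lie at 0 in nearly all control, GFP and Id2 cells and well above 0 in part of the day 1 and day 14 cells.

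Cdh11, a type II cadherin, stood at 69.04 CPM in controls (67.1 to 71.1), 12.9 on day 1 (12.6 to 13.2), 34.1 on day 14 (33.4 to 34.8), 56.99 in GFP cells (56.002 to 57.99) and 39.7 in Id2 cells (38.9 to 40.5). Its highest cell was at 534 CPM among control cells, 292 on day 1, 406 on day 14, 2120 in GFP cells and 1015 in Id2 cells, and the medians were 0 except on day 14, at 0.136. The share of thinned cells with a read was 37.9% in controls, 12.1% on day 1 and 37.9% on day 14. Cdh11 was thus low on day 1, with a log2 ratio of -2.33 (-3.07 without microglia-rich cells), while on day 14 the ratio was -0.997, or -1.27 without the day 14 cell with most Cdh11 reads.

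Pcdh19, an X-linked protocadherin that binds together with N-cadherin, stood at 53.25 CPM in controls (51.5 to 55.02), 11.9 on day 1 (11.6 to 12.2) and 23.1 on day 14 (22.5 to 23.7). It was higher in the viral set, at 176 CPM in GFP cells (174.7 to 178.2) and 154 in Id2 cells (152.5 to 155.5). The highest cell was at 661 CPM among control cells, 208.5 on day 1, 332 on day 14, 1281 in GFP cells and 1725 in Id2 cells. Reads of Pcdh19 were found in 45.2% of control cells, 10.3% of day 1 cells, 20.7% of day 14 cells, 59.3% of GFP cells and 54.9% of Id2 cells. Between day 1 and control, Pcdh19 passed the filter through control cells alone, which favours a lower ratio. The log2 ratios of -2.08 on day 1 and -1.17 on day 14 were -3.79 and -2.88 against GFP cells, but 0.15 and 2.52 without microglia-rich cells. Without the control cell with most Pcdh19 reads the day 14 ratio was -0.80. The part of the microglia-rich cells in this result was not tested.

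Cdh12, a type II cadherin, stood apart on day 14. It was at 33.9 CPM in controls (32.5 to 35.3), 18.1 on day 1 (17.7 to 18.5), 116.98 on day 14 (115.7 to 118.3), 20.1 in GFP cells (19.5 to 20.7) and 6.38 in Id2 cells (6.08 to 6.69). Of the day 14 reads 34.7% came from 1 cell at 1682 CPM, and 10 of 29 cells had a read (34.5%, 17.9% to 54.3%). The log2 ratio to control was 1.76 with all cells, -0.96 without microglia-rich cells, 4.52 against control cells with J titles and 0.25 against the others. Its direction therefore depended on which cells were compared.

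The comparison of day 14 with day 1 sets the late cells against the early ones, which carry other title numbers, so that day and any batch behind those numbers cannot be told apart. Cdh11 and Cdh12 were 2-fold higher on day 14 and Pcdh8 was 2-fold lower. Of 23 measured members 2 were higher, against 17.4% of 9823 genes, and 1 lower, against 16.6%. Pcdh19, Pcdhb17 and Pcdhb20 passed the filter through day 14 alone, which favours a higher ratio. Of the 20 members that passed it in both groups 2 were higher and 1 lower. Over all 7940 genes that passed it in both groups, 11.6% were higher and 14% lower. The log2 ratios were 2.63 for Cdh12, 1.34 for Cdh11 and -1.20 for Pcdh8, and without microglia-rich cells 0.62, 1.77 and -0.89. The median over the members was 0.22, against -0.02 over all measured genes. Next in size were Pcdh20 (0.95) and Pcdh19 (0.91) among the higher members and Pcdh17 (-0.89) among the lower. From summed counts none of the 3 passed 2-fold with all cells. By the mean over cells and on thinned cells Pcdh20 (1.35 and 1.46) and Pcdh19 (1.56 and 1.37) did. Pcdh17 did not (-0.90 and -0.86). Without the cell with most reads of the gene in the lower group, the summed ratios of Pcdh20, Pcdh19 and Pcdh17 were 1.20, 1.37 and -1.04. Pcdh20 was at 192 CPM in controls, 106.4 on day 1, 206 on day 14, 315 in GFP cells and 237 in Id2 cells, and its median cell was at 0 except in GFP cells, at 11.3. Pcdh17, a protocadherin of presynaptic vesicle assembly, was at 113.9 CPM in controls, 199 on day 1, 107.3 on day 14, 84.3 in GFP cells and 76.3 in Id2 cells. Its median cell was at 27.5, 59.97, 36.04, 0.963 and 5.97 CPM, highest on day 1 as in the sums.

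The comparison of Id2 cells with GFP cells asks what overexpression of Id2 did beside the virus itself. Cdh13, Cdh12 and Pcdhb9 were 2-fold lower in Id2 cells, and no measured member was 2-fold higher. Of 15 measured members 0 were higher, against 10.2% of 7846 measured genes, and 3 lower, against 12.6%. Cdh12, Pcdhb9 and Cdh8, the last not past 2-fold, passed the filter through GFP cells alone, and 0 members through Id2 cells alone. Of the 12 members that passed it in both groups 1 was lower, Cdh13. Over all 6328 genes that passed it in both groups, 7.84% were higher and 8.83% lower. The median log2 ratio was -0.41 over the members and -0.10 over all measured genes. From summed counts 13 of 15 members were below 0. The share of all measured genes below 0 was not counted, so this count has no background and is not read as a result. By the mean over cells and on thinned cells Cdh2 (0.30 and 0.36) and Pcdhg (0.05 and 0.09) were above 0. Pcdh20 was above 0 on thinned cells (0.13), and the others below 0 kept that sign. Titles fall into a lower set (43 cells of each group) and a higher set (28 Id2 and 16 GFP cells), found in both groups.

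Cdh13 (T-cadherin, which has no cytoplasmic tail and is held in the membrane by a lipid anchor, chromosome 8, 118283733 to 119324921, plus strand) was lower in Id2 cells in both sets of titles. It stood at 127.6 CPM in GFP cells (126.1 to 129.0) and 40.7 in Id2 cells (39.9 to 41.4), 3.14-fold lower. The highest cell was at 1109 CPM in GFP cells and 640 in Id2 cells, and both medians were 0. Its reads were in 37.3% of the GFP cells (25.04% to 50.9%) and in 29.6% of the Id2 cells (19.3% to 41.6%), intervals that overlap. Among cells with a read the median was 312 CPM in GFP cells and 16.96 in Id2 cells, so cells with a read held less of it. The log2 ratio was -1.63 over all cells, -2.16 in the lower set of titles, -1.25 in the higher set and -2.10 without microglia-rich cells. In the kainate set Cdh13 stood at 79.15 CPM in controls (77.03 to 81.3), 127.2 on day 1 (126.1 to 128.2) and 133 on day 14 (131 to 134). Its highest cells were at 608, 886 and 972 CPM, its medians at 0, 1.94 and 0, and neither ratio to control passed 2-fold.

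Cdh12 and Pcdhb9 did not keep their direction over the title sets. Cdh12 was at 20.1 CPM in GFP cells and 6.38 in Id2 cells, with a log2 ratio of -1.51 over all cells, -0.76 without the GFP cell with most Cdh12 reads, -4.33 in the lower set of titles and 3.34 in the higher set. Pcdhb9 was at 65.1 CPM in GFP cells and 20.6 in Id2 cells, with ratios of -1.95 and 1.88. Pcdh9, one of the most abundant protocadherins, was at 165 CPM in GFP cells and 91.1 in Id2 cells, a log2 ratio of -0.85, and reads were found in 52.5% and 32.4% of cells. Its ratio was -0.75 in the lower set of titles and -1.14 in the higher set, and -1.09 without the Id2 cell with most Pcdh9 reads. In the kainate set Pcdh9 stood at 255 CPM in controls, 242 on day 1 and 285 on day 14. From summed counts the 2 measured members above 0 in Id2 cells were Pcdh1 (38.2 CPM in GFP cells, 44.2 in Id2 cells) and Pcdha (158 and 175). Their log2 ratios were 0.21 and 0.14. Without the Id2 cell with most reads of the gene these were -0.64 and -0.04. The log2 ratio of Pcdh8 was -0.55, and -0.51 and -0.62 in the 2 sets of titles.

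The rows for whole clusters were widely detected. Pcdhg stood at 371 CPM in controls (366 to 375), 410 on day 1 (408 to 412), 618 on day 14 (615 to 621), 355 in GFP cells (353 to 358) and 339 in Id2 cells (337 to 342). Reads of Pcdhg were found in 74.2% of control cells and in 93.2% to 96.6% of the cells of the other groups. Pcdha stood at 154, 191, 273, 158 and 175 CPM, with reads in 61.3% to 86.2% of cells. Both were highest on day 14, with log2 ratios to control of 0.74 for Pcdhg and 0.82 for Pcdha. Of the control reads of Pcdha 46.4% came from 1 cell, and without it the control level was 85.9 CPM and the ratio of Pcdha 1.14 on day 1 and 1.66 on day 14. Without the control cell with most Pcdhg reads the day 14 ratio of Pcdhg was 1.09. With all cells, the day 14 ratio of Pcdha was 0.75 by the mean over cells and 0.80 on thinned cells. That of Pcdhg was 0.91 and 0.86, so these also stayed under 2-fold. Over all alternatives run, Pcdha ranged from -0.34 to 1.14 on day 1 and from -0.67 to 1.66 on day 14, so its sign was not kept. Pcdhg ranged from -0.12 to 0.60 on day 1 and from 0.48 to 1.33 on day 14. Within each group Pcdha and Pcdhg were among the 3 most alike pairs of members, with a Pearson r of log2(CPM + 1) over cells of 0.52 in 31 control cells, 0.40 in 58 day 1 cells, 0.50 in 29 day 14 cells, 0.54 in 59 GFP cells and 0.72 in 71 Id2 cells. Such a correlation also holds what the cells' libraries share, such as depth, and which variable exons were read cannot be seen from 1 row per cluster. The pair most alike in controls was Cdh2 and Pcdh20 (r of 0.60), and on day 14 Cdh13 and Pcdh17 (r of 0.51).

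The beta protocadherins, single-exon genes of which many are close copies of each other, were each found in few cells. No beta gene reached 20% of cells in control, day 1 or Id2 cells, 2 did on day 14 and 1 in GFP cells. The labels do not say how reads that fit several copies were counted, so the split of reads between beta genes is uncertain. Their summed level was 80.4 CPM in controls, 144 on day 1, 275 on day 14, 145 in GFP cells and 70.7 in Id2 cells. On day 14, 115.96 CPM of this was Pcdhb12, found in 3 cells with 73.2% of its reads in 1. Pcdhb17 had no read in the 31 control cells, where 3 counts over the group would be 0.0447 CPM. It stood at 26.8 CPM on day 1 (26.4 to 27.3), 16.3 on day 14 (15.8 to 16.8), 20.7 in GFP cells and 9.87 in Id2 cells. Against that floor Pcdhb17 was 364-fold higher on day 14 and 601-fold higher on day 1. The floor covers the counting of reads and not which control cells were sampled, so these folds are not lower bounds. Reads of Pcdhb17 lay in 7 cells on each day, which on day 1 was too few to count as measured. Without the cell that held 52.9% of the day 1 reads the level of Pcdhb17 there was 13.4 CPM, and without the cell that held 48.3% of the day 14 reads it was 8.99. Its cells were at most at 339 CPM on day 1 and 122.6 on day 14. With libraries labelled as failing included, or against GFP cells, its day 14 log2 ratio of 4.11 became -1.57 and -0.33.

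Pcdhb20 had 3 reads in controls, 0.0447 CPM (0.00921 to 0.131). It stood at 16.9 CPM on day 1 (16.6 to 17.3), 11.8 on day 14 (11.3 to 12.2), 4.003 in GFP cells (3.74 to 4.28) and 10.9 in Id2 cells (10.5 to 11.3). Cells with a read numbered 9 of 58 on day 1 and 6 of 29 on day 14, where 71.2% of the reads came from 1 cell, without which the day 14 log2 ratio of 3.61 was 2.14. Most cells of every group thus had no read of either gene.

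**Figure D4:**
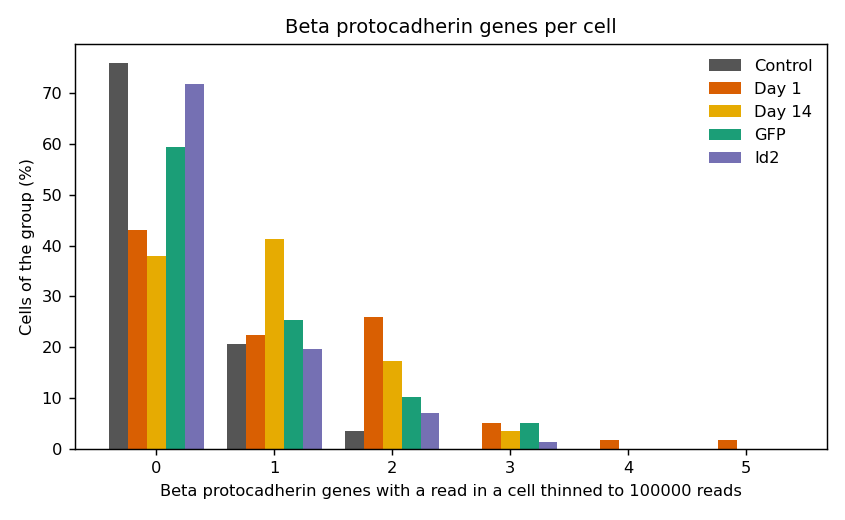
Percentage of the cells of each group (vertical axis) by the number of beta protocadherin genes with a read after thinning to 100000 reads (horizontal axis), with bars coloured by group. The bar at 0 genes is the tallest for every group except day 14, where more cells have 1 gene, and 56.9% of day 1 and 62.1% of day 14 cells have at least 1.

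Counted per cell, at least 1 beta gene with 10 or more reads was found in 19.4% of control cells (7.45% to 37.5%), 60.3% on day 1 (46.6% to 72.95%), 62.1% on day 14 (42.3% to 79.3%), 40.7% among GFP cells (28.1% to 54.3%) and 29.6% among Id2 cells (19.3% to 41.6%). On thinned cells with 1 or more reads the shares were 24.1%, 56.9%, 62.1%, 40.7% and 28.2%. Control cells were also the shallowest, and the order of the groups was the same on thinned cells. Thinning evens out reads per cell only. Thinned cells also differed between groups in the number of all genes with a read, and the part of this was not tested. Including the alpha and gamma rows, a cell held 10 or more reads of a median of 2 clustered rows in controls (lowest 0, highest 4), 3 on day 1 (0 to 6), 2 on day 14 (1 to 5), 2 in GFP cells (0 to 6) and 2 in Id2 cells (0 to 5). The means were 1.35 ± 1.14, 2.91 ± 1.44, 2.62 ± 1.27, 1.92 ± 1.41 and 1.72 ± 1.11 (SD over 31, 58, 29, 59 and 71 cells).

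The sets of beta genes differed from cell to cell. On day 1, 35 cells with at least 1 beta gene at 10 reads held 28 distinct sets, and 19.3% of 595 pairs of these cells shared a gene. On day 14, 18 cells held 14 sets and 22.2% of 153 pairs shared a gene. Among GFP cells 24 held 17 sets (23.9% of 276 pairs) and among Id2 cells 21 held 15 (10.95% of 210 pairs), while the 6 such control cells held 6 sets with no gene in common. In cells with at least 2 beta genes, the leading gene held a median of 67.8% of the cell's beta reads on day 1 (21 cells), 55.1% on day 14 (7 cells), 81.6% in GFP cells (9 cells) and 68.8% in Id2 cells (5 cells).

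The other genes of these pathways were counted from 6 lists, beside the backgrounds given above for each comparison. The filter was the same, so a gene could pass it through 1 group alone, which favours that group. Between day 1 and control, Ctnnbip1, Fat3, Dsc1, Dsg2 and Aph1b, among others, passed it through day 1 alone. Fat1, Aph1a and Wasf2 passed it through control cells alone. List genes that passed it in both groups were not counted apart, so the list counts are a description. The list of catenins and adaptors holds genes that bind the tails of classical cadherins and genes that do not, such as Ctnnbip1. Of 11 in the table, 9 were measured on day 1, with 1 higher (Ctnnbip1) and 1 lower (Ctnnd1). On day 14, 8 were measured, with 1 higher and 3 lower (Ctnnd1, Jup and Mllt4). Ctnnd1, p120-catenin, which keeps cadherins at the membrane, stood at 85.7 CPM in controls, 29.6 on day 1, 10.97 on day 14, 118.6 in GFP cells and 38.1 in Id2 cells. Ctnnb1, beta-catenin, stood at 575 CPM in controls, 305 on day 1, 570 on day 14, 282.5 in GFP cells and 451 in Id2 cells, with no ratio past 2-fold. Ctnnd1 and Mllt4 (afadin, at 132 CPM in GFP cells and 47.7 in Id2 cells) were 2-fold lower in Id2 cells, and Ctnna1 (8.89 and 27.98 CPM) was higher, among 8 measured. From day 1 to day 14, 0 of 9 were higher and 3 lower (Ctnna2, Ctnnd1 and Jup).

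Among 25 related genes outside the symbol rule, most of them large and atypical cadherins, 12 were measured on day 1. Of these, 4 were higher (Fat3, Fat4, Dsc1 and Dsg2) and 4 lower (Fat1, Celsr1, Celsr2 and Clstn1). On day 14, 2 of 9 were higher (Fat3 and Fat4) and 2 lower (Fat1 and Fjx1, which is not a cadherin). Fat3, a giant cadherin, had no read in controls and was found in 48.3% of day 1 cells (57.7 CPM) and 55.2% of day 14 cells (40.1 CPM), and it also stood at 18.6 CPM in GFP cells and 10.4 in Id2 cells. Dsc1 and Dsg2, desmosomal cadherins, stood at 30.1 and 24.6 CPM on day 1 and at 2.32 CPM and no read on day 14. From day 1 to day 14, 2 of 10 were higher and 2 lower, and in Id2 cells 1 of 9 was higher (Celsr1) and 1 lower (Fat4).

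Of 10 genes of cadherin proteolysis, 9 were measured on day 1 (3 higher, 2 lower), 9 on day 14 (4 higher, 0 lower), 9 between the days (3 higher, 0 lower) and 6 in Id2 cells (0 higher, 1 lower). Aph1b, a subunit of the gamma-secretase that cuts cadherin tails, stood at 0.461 CPM in controls, 15.1 on day 1 and 22.3 on day 14, while its paralogue Aph1a stood at 36.7, 1.63 and 32.6. Adam17, a sheddase, stood at 16.3, 7.30 and 48.9 CPM. Day 14 was thus the highest of the 3 groups for Aph1b and Adam17. Adam17 is also expressed by microglia, whose markers were highest on day 14, and their part in its level was not tested.

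Of 10 genes around the WAVE complex, the actin regulator bound by protocadherin tails, all 10 were measured after kainate, with 0 higher and 2 lower on day 1 (Wasf1 and Wasf2) and 0 higher and 1 lower on day 14 (Abi1). Between the days 2 were higher and 1 lower, and in Id2 cells 0 of 9 passed 2-fold. Wasf1 stood at 568 CPM in controls, 169 on day 1, 330 on day 14, 481 in GFP cells and 310 in Id2 cells. Of 6 partners of protocadherin tails, Ptk2 (focal adhesion kinase) was higher on day 1 (131 CPM in controls, 287 on day 1) and Ptk2b (Pyk2) lower (939 and 412 CPM). On day 14 Taok2 alone passed 2-fold (22.7 and 48.8 CPM), between the days 0 did, and in Id2 cells Axin1 did (12.997 CPM in GFP cells, 49.4 in Id2 cells). For the chromatin factors of the clustered genes, 10 of 11 in the table were measured in each comparison. On day 1, 2 were higher (Rad21 and Smc3, of cohesin) and 4 lower (Stag1, Stag2, Smchd1 and Setdb1), and on day 14 2 were higher (Rad21 and Smc3) and 2 lower (Smc1a and Stag2). Smc3 stood at 17.4 CPM in controls, 77.6 on day 1 and 140.1 on day 14, and Stag2 at 131, 13.2 and 28.3. Between the days 2 were higher and 1 lower, and in Id2 cells 3 were higher (Rad21, Smc1a and Stag1) and 0 lower.

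Over the 4 comparisons 24 members were measured at least once and 35 were not: 14 cadherins, 2 protocadherins outside the clusters and 19 beta genes. The unmeasured cadherins include Cdh1 (E-cadherin) and Cdh5 (the cadherin of endothelium), which were at or below 3.74 and 0.740 CPM in every group. Cdh15, the muscle cadherin, stood at 56.3 CPM in controls, but 92.1% of its reads came from 1 cell, and it was found in 2 to 4 cells of each group. From summed counts Pcdh1 and Pcdh7 passed 2-fold in no comparison in which they were measured. By the mean over cells and on thinned cells, Pcdh7 passed it against control on day 1 (1.10 and 1.32) and day 14 (1.41 and 1.39). Pcdh1 passed it on day 1 on thinned cells (-1.05) and not by the mean over cells (-0.77). In the Id2 comparison Pcdh7 was in too few cells to count as measured, with a log2 ratio of -2.26. Pcdh1 ranged from 38.04 CPM on day 1 to 56.1 in controls, and Pcdh7 from 6.09 in Id2 cells to 33.1 in GFP cells.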

How the data were processed

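Each library was prepared with Nextera XT from the cytosol of 1 mouse dentate granule cell, taken by patch pipette, per the labels' protocols. The submitters' processing notes name Trimmomatic, STAR, featureCounts and GRCm38, without versions; these notes and labels give no strand, rule for multi-mapped reads or rule for quality control. Counts, as whole reads per gene, were deposited for 291 cells, of which 252 are labelled Passed and 39 Failed. A second deposited table holds a scaled signal for the 252 Passed cells, the counts of a cell times 1 factor (0.187 to 287), and served as an alternative. Since the names of these tables are the reverse, their units were taken from the values. Of 304 labelled samples 13 had no column and were not used here, and 2 contralateral cells and 2 low_DG libraries were left out of the comparisons.

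Counts of Passed cells were summed per group and scaled to CPM with numpy 2.4.6, pandas 2.3.3 and scipy 1.17.1 (Python 3.11.15). Depth per cell ran from 32487 to 27708910 reads. Without molecular identifiers reads are not independent molecules, so intervals and floors (3 counts over a group) cover counting error only. Thinning drew 100000 reads per cell at random. The ratio with 1 CPM added was checked on simulated counts, for measured genes at 5 CPM or more in the second group of a comparison. That check did not judge the thresholds (20% of cells, 5 CPM, 2-fold). Members below 5 CPM in controls, such as Cdh4, Cdh22 and Pcdh10, lay outside it in the comparisons with control. Exon lengths and coordinates come from GENCODE vM21 (57 members matched, Pcdha and Pcdhg not), and coordinates on 1 chromosome are not printed. Alternatives were the mean over cells, thinned cells, the scaled signal, a median-of-ratios factor, 5 CPM added, Failed cells included, microglia-rich cells left out, other control cells, title sets and no filter on low genes.

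Full values went to Cdh2, Cdh8, Cdh9, Cdh10, Cdh13 and Pcdh8 and, in each comparison, to up to 4 members on either side whose ratios from summed counts, means over cells and thinned cells shared a sign, ranked by the smallest; of each pathway list up to 3 genes were taken by the same rank. Other members are named with values where a count includes them. Members and lists were chosen with earlier results of these data known. The plan expected separate alpha and gamma genes, which the table holds as 1 row each.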

Additional observations from a re-analysis of the deposited data

Results flagged for a closer look

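Pcdhb17 was found in both cells labelled as coming from the side opposite to the injection 1 day after kainate, cells that enter no comparison. They stood at 189.8 and 190.4 CPM, above the highest of the 31 control cells, which had no read. The 2 cells carry K titles as the day 1 cells do, of which 7 of 58 had a read of Pcdhb17. None of the other 20 members compared was above the highest control cell in both contralateral cells. The gene belongs to a cluster of close copies, and the labels do not say how reads shared between copies were counted.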

How the results depend on the processing

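No paired analysis was possible because the replicate numbers only name cells within a group, in the order of deposit, and no label ties cells of different groups to 1 animal. Over the alternatives set at the start, 28 recomputed counts moved past the limit of 1.5 times and the medians and means did not; the cause was not tested. On day 1 the 3 members lower became 5 with the mean over cells, 7 on thinned cells, 6 with the scaled signal, 6 with the median-of-ratios factor and 7 against control cells without J titles. With no filter, day 1 gave 15 higher and 6 lower. On day 14 the 2 lower became 1 with the mean over cells, 1 with the scaled signal, 5 with the median-of-ratios factor, 7 without microglia-rich cells and 6 against control cells without J titles, and with no filter 16 were higher and 5 lower. Between the days the 2 higher and 1 lower became 5 and 2 with the mean over cells, 4 and 2 on thinned cells and 5 and 3 with the scaled signal, 5 were lower without microglia-rich cells, and with no filter 8 were higher and 7 lower. With Id2 the 0 higher became 1 in the lower set of titles and 3 in the higher set, where 5 were lower, and with no filter 7 were higher and 15 lower.

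The medians of the measured members ranged from -0.06 to 0.14 on day 1, from 0.32 to 0.80 on day 14, from -0.11 to 0.61 between the days and from -0.53 to -0.07 for Id2 over GFP.

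Of 24 member ratios past 2-fold, 7 turned direction under at least 1 alternative. Without microglia-rich cells these were Pcdh19 on day 1 (0.15) and, on day 14, Pcdh19 (2.52), Cdh12 (-0.96) and Pcdh10 (-2.13). Pcdhb17 on day 14 turned to -1.57 with Failed cells included and to -0.33 against GFP cells. In the higher set of titles, Cdh12 turned to 3.34 and Pcdhb9 to 1.88 with Id2. Of 35 followed ratios that did not pass 2-fold, 24 had the other sign in at least 1 alternative, among them, in the higher set of titles with Id2, Cdh8 (2.14), Cdh9 (0.84) and Pcdh1 (-1.97). In all alternatives run, Cdh4 stayed between 3.37 and 5.85 on day 1 and between 2.87 and 5.93 on day 14, Cdh22 between 2.402 and 6.21 and between 2.32 and 6.17, and Pcdh11x between 2.60 and 6.36 and between 2.50 and 7.15. Pcdh8 stayed between -2.22 and -1.12 on day 14 and Cdh13 between -2.16 and -1.25 with Id2. Leaving out the cell with the most reads of a gene in 1 of the 2 groups, chosen after seeing the data, brought Pcdh10 on day 14 from 3.10 to 0.82 and Pcdh15 from 1.71 to 0.97. The counts of cells and reads in control cells limit how low a level of Cdh4 or Cdh22 there could be seen.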
